A study of Homo sapiens with 6 samples.

Results

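The regions described here are accessible chromatin peaks at the promoters of long non-coding RNA (lncRNA) genes that lie away from any protein-coding promoter. A peak was taken when its centre lay within 500 bp of the start site of a transcript that GENCODE release 44 assigns to a lncRNA gene and more than 3 kb from the start sites of all protein-coding transcripts. Of the 152800 peaks of the series, 3439 met this rule, and they belonged to 3017 lncRNA genes. The rule used position only, not the counts.

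The peaks come from ATAC-seq (assay for transposase-accessible chromatin with sequencing) of A375, an established human melanoma cell line. In this assay the Tn5 transposase inserts sequencing adapters into open DNA, so a higher count in a peak means more insertions there. Libraries of HMGB2OE cells, a stable line made by lentiviral transduction with an HMGB2 plasmid, were compared with libraries of cells that carry the empty vector, and there were 3 libraries of each. The study describes them as technical replicates of a single experiment, so the spread and the p-values below are between libraries of 1 line per condition. HMGB2 is a high-mobility group protein that binds and bends DNA with little sequence preference.

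LncRNA genes are transcribed by RNA polymerase II, like protein-coding genes, but their transcripts hold no long reading frame. Their promoters are less often CpG islands than coding promoters, and many of them arise within enhancer-like elements or retroelements. Open chromatin at such a site shows that it can be reached by regulatory proteins, and does not by itself show that the RNA is made. Some lncRNA genes, such as NEAT1 and MALAT1, are transcribed in nearly all cells, whereas many others are restricted to a single lineage.

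The 5 sequences below are the middle 300 bases of member peaks with the 3 largest rises and of 2 of the 3 largest falls whose libraries did not overlap between conditions, and they are shown because these are among the sites where the members changed most. They were read from hg38 and are written 5′ to 3′ on the strand of the lncRNA gene. Capitals mark matches on either strand to 6 motif words: TGANTCA for AP-1, TGACGTCA for the cyclic AMP response element (CRE), CACGTG for the E-box, ACAAAG for SOX factors, TATAAA for the TATA box and CCACNAGG for the CTCF core. A word read on the opposite strand appears as its reverse complement, and a match is a description of the letters only.
ENSG00000230516 (chr9:32644750-32645049, minus strand): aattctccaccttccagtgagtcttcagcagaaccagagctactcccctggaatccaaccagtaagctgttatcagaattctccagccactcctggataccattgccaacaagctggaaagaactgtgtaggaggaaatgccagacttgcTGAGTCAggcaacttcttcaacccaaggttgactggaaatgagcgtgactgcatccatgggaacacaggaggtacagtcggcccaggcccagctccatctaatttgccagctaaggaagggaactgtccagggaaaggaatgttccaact
ENSG00000248443 (chr5:124828861-124829160, plus strand): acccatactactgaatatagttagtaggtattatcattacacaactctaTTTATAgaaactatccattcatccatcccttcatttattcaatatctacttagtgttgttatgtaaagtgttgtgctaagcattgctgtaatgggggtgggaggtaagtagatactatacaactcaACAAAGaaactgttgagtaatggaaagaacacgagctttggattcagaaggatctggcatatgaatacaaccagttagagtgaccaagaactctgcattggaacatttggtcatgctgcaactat
LINC00871 (chr14:46487560-46487859, plus strand): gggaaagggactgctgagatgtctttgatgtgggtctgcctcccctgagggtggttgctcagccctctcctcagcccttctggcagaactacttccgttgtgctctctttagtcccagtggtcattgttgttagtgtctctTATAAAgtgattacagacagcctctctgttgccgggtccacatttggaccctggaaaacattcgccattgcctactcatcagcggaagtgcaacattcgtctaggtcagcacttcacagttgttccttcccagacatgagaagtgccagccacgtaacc
ENSG00000279501 (chr21:9018157-9018456, minus strand): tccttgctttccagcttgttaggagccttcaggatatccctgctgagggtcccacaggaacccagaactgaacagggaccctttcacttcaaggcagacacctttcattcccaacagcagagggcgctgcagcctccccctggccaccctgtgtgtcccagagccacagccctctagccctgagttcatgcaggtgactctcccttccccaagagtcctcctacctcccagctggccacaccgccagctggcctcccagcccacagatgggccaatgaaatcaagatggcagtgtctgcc
LINC01445 (chr7:54330464-54330763, plus strand): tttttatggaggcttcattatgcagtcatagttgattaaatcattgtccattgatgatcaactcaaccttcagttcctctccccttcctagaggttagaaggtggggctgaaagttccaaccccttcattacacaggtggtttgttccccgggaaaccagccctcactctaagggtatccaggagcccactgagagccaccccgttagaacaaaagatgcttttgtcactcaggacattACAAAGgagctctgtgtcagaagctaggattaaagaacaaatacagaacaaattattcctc
Among the rises, ENSG00000230516 carried an AP-1 word close to the centre of its window, ENSG00000248443 carried a TATA and a SOX word, and LINC00871 a TATA word. Among the falls, LINC01445 carried a SOX word and ENSG00000279501 none of the 6. CpG dinucleotides were sparse in all of these windows, from 1 in ENSG00000248443 to 6 in LINC00871.

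The libraries held 26910189 to 45645294 counts in peaks, of which 866820 to 1507168 fell in the members. The check of the overexpressed gene was made on peaks inside HMGB2 on chromosome 4. Its promoter peak had a log2 fold change of -0.01 (edgeR adjusted p = 0.959), whereas a pair of peaks in the gene body rose from 28.8 ± 6.28 to 63.0 ± 10.6 and from 32.0 ± 15.7 to 98.4 ± 5.31 normalized counts (SD, n = 3), with adjusted p = 0.00822 and 0.000113. Whether the reads in this pair come from the gene itself or from the introduced HMGB2 plasmid was not tested. Of the melanocyte and melanoma markers looked up, MITF, SOX10, PMEL, SOX9, AXL, NGFR and S100B had a promoter peak and TYR, DCT, MLANA and TYRP1 had none. Of the markers of other cells, EPCAM, CDH1 and KRT14 had one and PTPRC, CD3E, PECAM1, KRT5 and ALB had none. None of the promoter peaks of these markers passed the threshold.

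Most members lay far from coding genes. The median distance to the nearest coding start was 43802 bp, and 2891 of the 3439 members (84.1%) were intergenic. A further 404 lay within a coding gene on its opposite strand and 144 within one on the same strand, and 70 were centred in an exon of a coding gene. Of the members 56.1% belonged to lncRNA genes with an identifier but no symbol. Named groups were 777 peaks of long intergenic (LINC) genes, 260 of antisense genes, 66 of microRNA hosts, 30 of divergent transcripts and 23 of small nucleolar RNA (snoRNA) hosts. In 2706 genes there was a single member peak, in 311 there were 2 or more, and the largest number was 10. All members were 502 bp wide, so their counts can be compared with each other without correction for length.

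After the filter on low counts, 3360 members (97.7%) were tested and 79 were not. Accessibility is given below as normalized counts, which are counts scaled to a common library size by TMM factors. By this measure a tested member was open at a median of 178 normalized counts, compared with 468 for the 19033 tested coding promoter peaks, 89.8 for the 103817 tested peaks more than 3 kb from any coding or lncRNA start (distal peaks) and 105 for all 150117 tested peaks. Members therefore stood between coding promoters and distal peaks in height. They stood between them in sequence as well. The median GC content was 52.2% in members, 63.9% in coding promoters and 44.2% in distal peaks. Peaks with at least 50% GC and an observed over expected CpG ratio of at least 0.6, here called CpG-rich, made up 26.3% of tested members (884 of 3360), 65.0% of coding promoters and 2.54% of distal peaks.

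The motif words followed the same order in part. The AP-1 word was found in 30.9% of tested members, 14.2% of coding promoters, 41.6% of distal peaks and 36.4% of all tested peaks. The SOX word was found in 31.8% of members against 37.3% of all tested peaks, and the TATA word in 18.5% against 27.1%. The CRE word was found in 1.84% of members against 0.758% of all tested peaks, and the E-box word in 9.05% against 6.85%. Members and all tested peaks held the CTCF core word at the same share, 10.3%.

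The most accessible members belonged to lncRNA genes without a symbol. ENSG00000223751, 63.3 kb from TMEM18 on chromosome 2, was the most open, with 3245, 3773 and 4224 normalized counts in empty vector libraries and 4124, 3715 and 4458 in HMGB2OE libraries. It was followed by ENSG00000291177 near ZNF506 (mean over 6 libraries 3686), ENSG00000290122 inside CROCC (3564), ENSG00000285646 near KIAA2013 (3414) and ENSG00000276216 near PPIAL4D (3259). These 5 peaks overlapped between conditions, and their log2 fold changes lay between -0.06 and 0.13, with adjusted p of at least 0.387. Of the 31-base words in their sequence, 41.5% in ENSG00000223751 and 74.4% in ENSG00000276216 occur more than once in the genome, so reads there may come from other copies.

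Between HMGB2OE and empty vector cells, called changes at members were few and went in both directions. A peak was called changed at a Benjamini–Hochberg-adjusted p under 0.05 over all tested peaks in edgeR's quasi-likelihood test and a fold change of at least 1.5. By this rule 55 of 3360 members were higher in HMGB2OE (1.64%) and 42 were lower, beside 1.87% and 1.44% of all tested peaks. Together 97 members in 96 genes were called (2.89%), beside 3.31% of all tested peaks, so the members' share lay near the background. The median log2 fold change was -0.015 in members and -0.0049 in all tested peaks, and 90% of members lay between -0.41 and 0.50. Library size scaling without TMM turned the members' median to 0.0062.

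Counts of calls moved with the fold limit and with a single library. With a lower fold limit, of 0.322 on the log2 scale, there were 101 members higher and 103 lower (3.36% and 2.85% of all tested peaks), and with no fold limit 102 and 110 (3.44% and 3.03%). DESeq2's Wald test called 38 higher and 39 lower, beside 1.38% and 1.09% of all tested peaks. At an unadjusted p under 0.05 there were 672 members (20%), beside 20.9% of all tested peaks. Without HMGB2OE replicate 1 the count of higher members fell from 55 to 28. The higher share of called members was 56.7%, beside 56.4% of all called peaks. In members it was 44.4% without HMGB2OE replicate 1, 46.8% after a loess trend on mean count and 46.5% with GC offsets. The excess of higher over lower calls thus did not hold under these settings. Calls over all tested peaks under these 3 settings are not given here, so no dependence particular to members is shown.

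**Figure D1:**
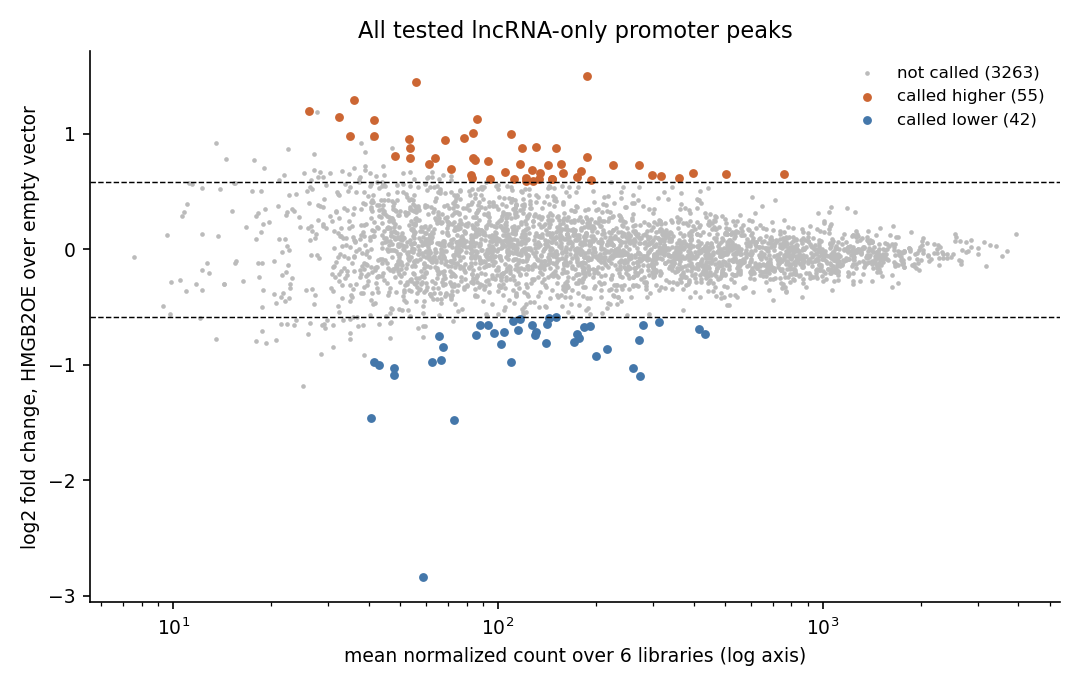
Log2 fold change of HMGB2OE over empty vector (vertical axis) against the mean normalized count over 6 libraries (horizontal axis, log scale) for the 3360 tested lncRNA-only promoter peaks, 1 point each, with dashed lines at a fold of 1.5. Called peaks (55 higher, 42 lower) lie mostly at low and middle counts, MIR4527HG at -2.84 stands lowest, and the points narrow towards 0 at high counts.

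Calls past the fold limit were found at the less open members, as they were over all peaks, and this distribution depended on that limit. The median of normalized counts was 116 in members called higher and 122 in members called lower, against 183 in members not called. Divided by mean count into 4 bins of 840, from the least to the most open, the members held 26, 48, 21 and 2 calls. These were 3.10%, 5.71%, 2.50% and 0.238% of the members in each bin, beside 3.30%, 5.34%, 2.55% and 0.276% of all tested peaks within the same count limits. With no fold limit the bins held 26, 71, 75 and 40 calls, or 3.10%, 8.45%, 8.93% and 4.76% of members, beside 3.30%, 7.64%, 10.99% and 6.28% of all tested peaks. Precision differs along this axis as well, since the median standard error of the log2 fold change fell from 0.26 in the lowest bin to 0.09 in the highest. Both calls in the highest bin were rises, whereas with no fold limit 10 members of this bin were higher and 30 lower (1.19% and 3.57%, beside 2.27% and 4.01% of all tested peaks there).

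The libraries of the groups did not overlap in 847 of 3360 members (25.2%), beside 25.1% of all tested peaks. Among the 97 called members, 93 (95.9%) did not overlap, beside 98.2% of all called peaks, and the other 4 were LINC01694, ENSG00000263154, ENSG00000205452 and HISLA, which were named after their values were seen.

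The largest rise was at ENSG00000230516 (chr9:32644649-32645150, a gene on the minus strand, 9.23 kb from TAF1L). It had 111, 95.5 and 88.9 normalized counts in empty vector libraries and 297, 275 and 260 in HMGB2OE libraries. Each HMGB2OE library was thus more than double the empty vector libraries. The fitted log2 fold change was 1.5 ± 0.14 (SE, edgeR adjusted p = 1.54e-07), and it stayed between 1.44 and 1.59 when any library was left out. Of the 71 other tested peaks within 500 kb, 5 were also called higher, all of them distal and at most 78.0 kb away.

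The second rise was at ENSG00000248443 (chr5:124828760-124829261, intergenic, 80.2 kb from ZNF608). Its normalized counts were 34.7, 24.9 and 31.6 in empty vector and 79.9, 92.6 and 72.0 in HMGB2OE libraries. No HMGB2OE library came near the empty vector range. The log2 fold change was 1.45 ± 0.24 (adjusted p = 0.000361), 3 other peaks within 500 kb were called higher, and the ZNF608 promoter peak had a log2 fold change of -0.06. ZNF608 encodes a zinc finger protein.

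LINC03074 (chr4:151955789-151956290, 195 kb from GATB) had 48.6, 53.3 and 60.8 normalized counts in empty vector libraries against 107, 136 and 113 in HMGB2OE libraries. ENSG00000255345 (chr11:79092888-79093389) lies inside TENM4, a teneurin gene of cell adhesion in neural development, on the opposite strand. It had 69.5, 76.6 and 73.7 normalized counts in empty vector libraries against 129, 167 and 144 in HMGB2OE libraries. Both peaks were well apart between conditions, with log2 fold changes of 1.12 ± 0.19 (adjusted p = 0.000382) and 1.0 ± 0.17 (adjusted p = 0.000378), and both remained called when any library was left out.

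The other 4 rises of this group were less firm. LINC00871 (chr14:46487459-46487960, 164 kb from RPL10L) had 23.6, 20.6 and 18.7 normalized counts in empty vector and 57.8, 48.4 and 47.3 in HMGB2OE libraries (log2 fold change 1.29 ± 0.30, adjusted p = 0.00776). Without HMGB2OE replicate 1 it missed the threshold (adjusted p = 0.0614). ENSG00000267529 (chr18:13472128-13472629) lies on the opposite strand within LDLRAD4, a gene that dampens TGF-beta signalling. It had 25.02, 67.1 and 70.2 in empty vector against 123, 88.4 and 127 in HMGB2OE libraries (1.01 ± 0.24, adjusted p = 0.00811), and it missed the threshold without HMGB2OE replicate 1 (adjusted p = 0.0540). Here the low empty vector replicate 1 set part of the difference, which was 0.71 without it, the lowest value of the leave-one-out fits.

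LINC01098 (chr4:177728291-177728792, 286 kb from AGA) had 20.8, 12.0 and 15.2 normalized counts in empty vector against 37.4, 27.5 and 43.9 in HMGB2OE libraries (1.2 ± 0.37, adjusted p = 0.0482). LINC01697 (chr21:28089954-28090455, 795 kb from N6AMT1) had 27.8, 16.4 and 17.6 against 49.3, 47.5 and 36.02 (1.15 ± 0.33, adjusted p = 0.0301). Both are among the least open called members and rest on few counts. The call at LINC01098 was lost without empty vector replicate 2 or 3 or any HMGB2OE library (adjusted p up to 0.182) and with GC offsets (log2 fold change 1.14), and DESeq2 gave this peak no adjusted p. The call at LINC01697 was lost without empty vector replicate 2 or 3 or HMGB2OE replicate 1 or 2 (up to 0.138).

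The largest fall among members was at MIR4527HG on chromosome 18, the host gene of miR-4527, 34.1 kb from SKOR2, which encodes a transcriptional corepressor known from Purkinje cells. Normalized counts were 90.3, 131 and 85.4 in empty vector libraries and 11.9, 9.18 and 23.6 in HMGB2OE libraries. The peak was thus close to absent in all HMGB2OE libraries. Its log2 fold change was -2.84 ± 0.29 (adjusted p = 1.27e-06), a 7.17-fold fall, and it ranged from -3.28 to -2.58 when any library was left out. Of 42 other tested peaks within 500 kb, 11 were called lower, with log2 fold changes of -2.42 to -0.77 and a median of -1.87, and none was called higher. The nearest of the 11 lay 1.57 kb away and the farthest 273 kb, and 9 of them were distal. The coding promoter peak of SKOR2 had a log2 fold change of -0.36 (adjusted p = 0.490).

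ENSG00000279501 (chr21:9018056-9018557, on the short arm of the chromosome) had 118, 102 and 104 normalized counts in empty vector libraries and 52.7, 34.2 and 27.0 in HMGB2OE libraries. The conditions were apart in every library (log2 fold change -1.48 ± 0.22, adjusted p = 0.000131). It lay in a group of falling peaks, as 14 of its 47 neighbours within 500 kb were called lower, all of them at most 15.7 kb away (median log2 fold change -1.04). Of its 31-base words 82.0% occur more than once in the genome, and how reads with several alignments were counted is not given in the sources used here. The part of repeated sequence in this fall was not tested.

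LINC01445 (chr7:54330363-54330864, 212 kb from VSTM2A) had 66.7, 68.8 and 43.3 normalized counts in empty vector libraries against 31.4, 15.8 and 16.9 in HMGB2OE libraries. Its log2 fold change was -1.46 ± 0.31 (adjusted p = 0.00391). The neighbourhood was lower as well, since the 32 other tested peaks within 500 kb had a median log2 fold change of -0.56 and 13 of them were called lower, to -1.84. The member ranked 6th in the size of its fall among these peaks. The promoter peak of VSTM2A, the nearest coding gene, had a log2 fold change of -0.49 (adjusted p = 0.0232), short of the fold limit.

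MCPH1-AS1, a gene beside and antisense to MCPH1 on chromosome 8, had 371, 395 and 356 normalized counts in empty vector libraries against 195, 167 and 162 in HMGB2OE libraries. ENSG00000273674 (chr15:50880293-50880794, 28.1 kb from AP4E1) had 374, 389 and 284 against 219, 155 and 136. These were the most open of the named falls, and at both each HMGB2OE library lay below the lowest empty vector library. The log2 fold changes were -1.10 ± 0.12 (adjusted p = 2.09e-06) and -1.03 ± 0.15 (adjusted p = 6.0e-05), and neither had another peak called lower within 500 kb. The nearest MCPH1 start lay 36.7 kb from the MCPH1-AS1 peak, and the most open MCPH1 promoter peak had a log2 fold change of -0.09 (adjusted p = 0.699). Of the 31-base words of the MCPH1-AS1 peak, 25.9% occur more than once in the genome.

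The last 3 named falls were at low counts. ENSG00000287171 (chrX:8504354-8504855, 32.3 kb from ANOS1, an adhesion protein of olfactory axon outgrowth) had a log2 fold change of -1.08 ± 0.29, from 89.0, 66.2 and 39.8 to 36.6, 24.2 and 30.4 normalized counts (adjusted p = 0.0195). ENSG00000237356 (chr14:53368724-53369225, 216 kb from DDHD1) went from 83.4, 47.3 and 62.0 to 18.7, 36.7 and 38.3 (-1.03 ± 0.29, adjusted p = 0.0290). ENSG00000259727 (chr15:62895098-62895599, 59.7 kb from TLN2, a talin) went from 51.4, 53.3 and 66.7 to 28.9, 21.7 and 36.02 (-1.0 ± 0.28, adjusted p = 0.0271). None of these calls held in all 6 leave-one-out fits. ENSG00000287171 was lost without empty vector replicate 1 or 2 or HMGB2OE replicate 2 or 3 (adjusted p up to 0.124), ENSG00000237356 without empty vector replicate 1 or 3 or HMGB2OE replicate 1 (up to 0.172) and also with GC offsets (log2 fold change -0.85), and ENSG00000259727 without empty vector replicate 2 or 3 or HMGB2OE replicate 1 or 2 (up to 0.129).

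**Figure D2:**
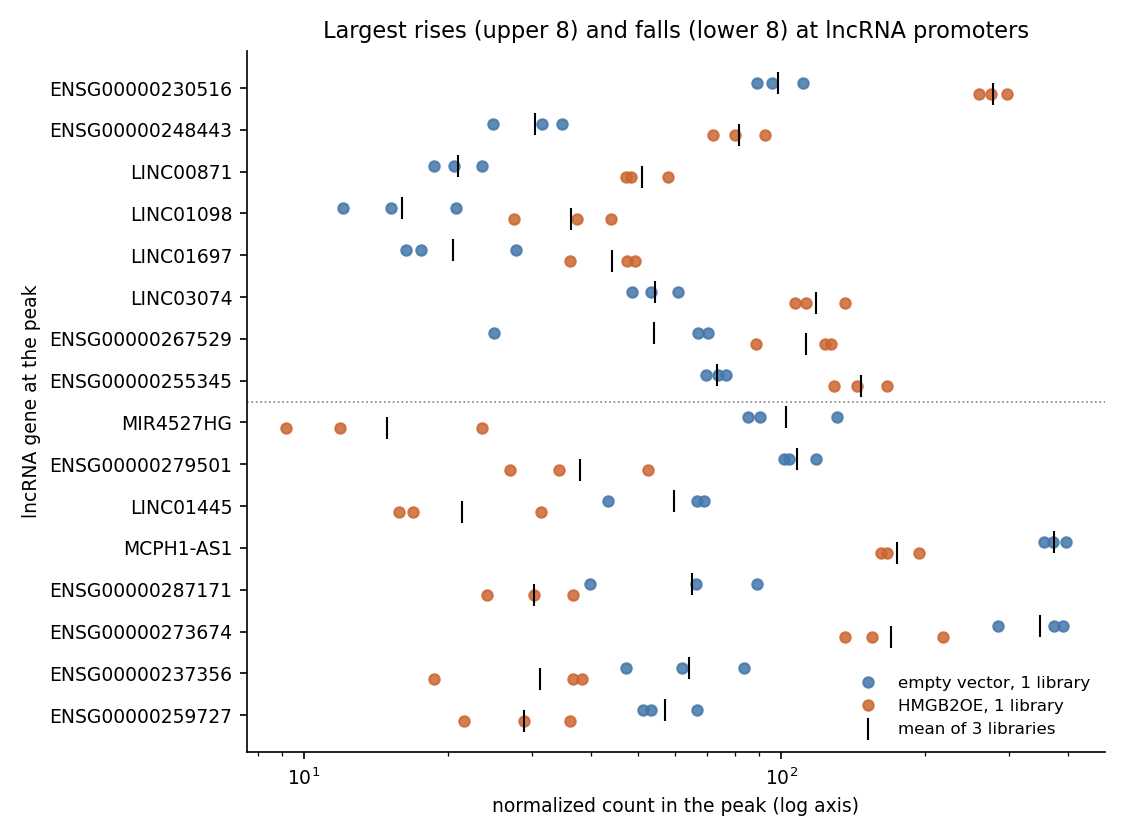
Normalized counts (horizontal axis, log scale) of the 8 largest rises (above the dotted line) and 8 largest falls (below it) among called lncRNA-only promoter peaks without overlap. Each point is 1 library, blue for empty vector and orange for HMGB2OE, and the black bar is the mean of 3; MIR4527HG shows the widest gap, from a mean of 102 to 14.9 normalized counts.

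Where a lncRNA gene had several member peaks, the call seldom extended to a second one. Among the 18 called genes with more than 1 tested member peak, LINC01010 alone had more than 1 called. In 11 of the 18 all tested peaks had log2 fold changes of the same sign, and in 7 the signs differed. The share for genes without a call is not given here, so no shared direction is shown. LINC01010 (chromosome 6, near SGK1, a serum- and glucocorticoid-regulated kinase) fell at chr6:134342909-134343410 from 327, 381 and 317 to 229, 211 and 213 normalized counts, and at chr6:134437314-134437815 from 174, 208 and 162 to 122, 134 and 106. At both peaks all HMGB2OE libraries lay below the empty vector libraries, with log2 fold changes of -0.66 ± 0.12 (adjusted p = 0.000714) and -0.59 ± 0.15 (adjusted p = 0.0131). Its other tested peak, chr6:134464661-134465162, had a value of -0.07 (adjusted p = 0.816). The first call was lost without empty vector replicate 2, at a fold below 1.5 (log2 -0.56), and the second was lost without it or HMGB2OE replicate 1 or 3, with values from -0.60 to -0.47. DESeq2 did not call the second (log2 -0.58). At LINC00871 the other promoter peak was more open, with a mean over libraries of 203 normalized counts, and had a log2 fold change of -0.16 (adjusted p = 0.516). At ENSG00000237356 the other peak had a mean of 525 and a log2 fold change of -0.09 (adjusted p = 0.653). At other genes the uncalled peak had a value close to that of the called one. The 2 promoters of LINC02367, named after their values were seen, had log2 fold changes of -0.73 ± 0.11 (adjusted p = 9.12e-05) and -0.65 ± 0.35 (adjusted p = 0.298), at means of 434 and 28.7 normalized counts, and those of PURPL had -0.96 and -0.66.

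The peaks around called members had medians near 0. Over the 55 members called higher, the median log2 fold change was 0.74, whereas the median of other tested peaks within 500 kb had a median of 0.04. In 40 of the 55 this neighbourhood median was above 0. Over all tested members the neighbourhood medians had a median of -0.0049. In 36 of the 55 (65.5%) at least 1 other peak in reach was also called higher, beside 58.1% of all tested members, 58.3% of all tested peaks and 72.7% of all peaks called higher. Over the 42 members called lower, the median was -0.75 and that of the neighbourhoods -0.05, which was below 0 in 29. Another peak called lower was in reach of 28 of the 42 (66.7%), beside 48.9% of all tested members, 51.0% of all tested peaks and 65.6% of all peaks called lower. These shares count any peak within 500 kb, so a called peak in reach is common around members that were not called themselves (58.0% for rises, 49.1% for falls). A neighbourhood median of at least 0.3 in the same direction was found at LINC01050 (0.33) and LINC00508 (0.37) among rises and at LINC01445 among falls. Of all 3360 tested members, 22 had a neighbourhood median of at least 0.3 in either direction. LINC01050 and LINC00508 were named after their values were seen. The nearest coding gene had a tested promoter peak at 43 of the higher and 36 of the lower members. It was called in the same direction at 1 of the 43 and in the opposite direction at 1 of the 36, beside 0.956% of all tested coding promoter peaks called.

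**Figure D3:**
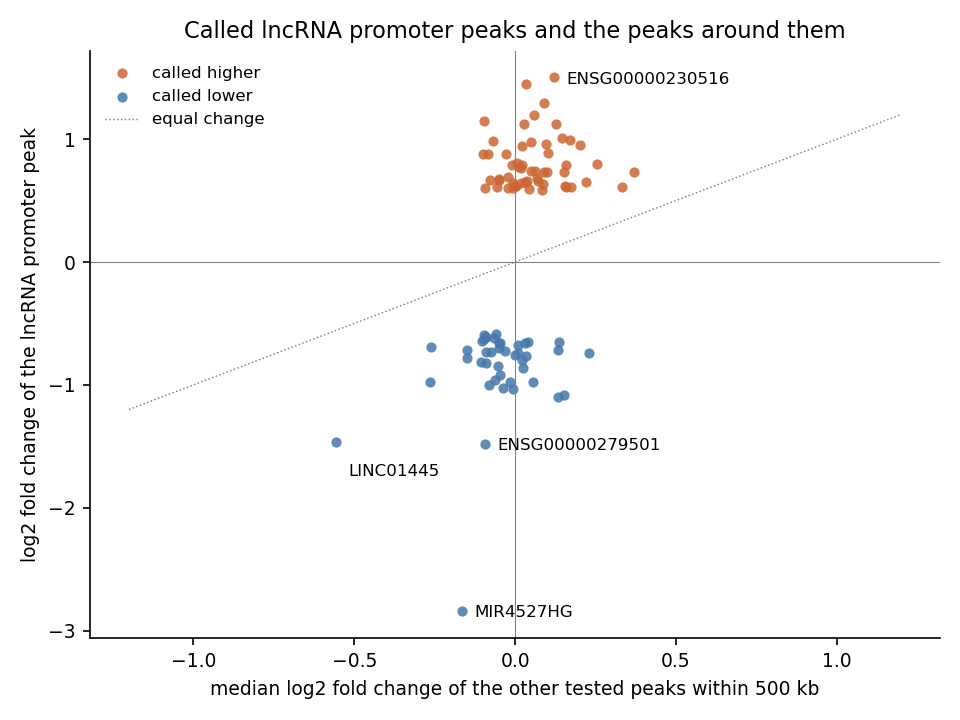
Log2 fold change of each called lncRNA-only promoter peak (vertical axis) against the median log2 fold change of the other tested peaks within 500 kb (horizontal axis), orange for the 55 called higher and blue for the 42 called lower. Most neighbourhood medians lie near 0, LINC01445 is at -0.56, and the dotted line marks equal change. The called peaks were selected for a fold of at least 1.5, so their distance from this line follows in part from the call rule.

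Most calls were at CpG-poor members. Of 884 CpG-rich members 4 were called higher and 3 lower (0.792%), whereas of 2476 CpG-poor members 51 were higher and 39 lower (3.63%). With no fold limit 7 CpG-rich members were higher and 20 lower (3.05% called), and 95 CpG-poor members were higher and 90 lower (7.47%). Of all tested peaks 3.44% were higher and 3.03% lower. The ratio of the shares was thus smaller, and most CpG-rich calls were falls. This was also so at CpG-rich coding promoters (66 higher and 191 lower of 12370), with 29 and 36 of 2638 at CpG-rich distal peaks. With the fold limit, coding promoters were called at 0.323% when CpG-rich and 2.13% when CpG-poor, and distal peaks at 0.910% and 4.01%. The classes also differ in height, as CpG-rich members had a median of 392 normalized counts and CpG-poor members 140, and the part of count in this difference was not tested. The median log2 fold change was -0.06 in CpG-rich members, and from -0.06 to -0.03 under other scalings. In CpG-poor members it was 0.01, and it turned to -0.01 with GC offsets.

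**Figure D4:**
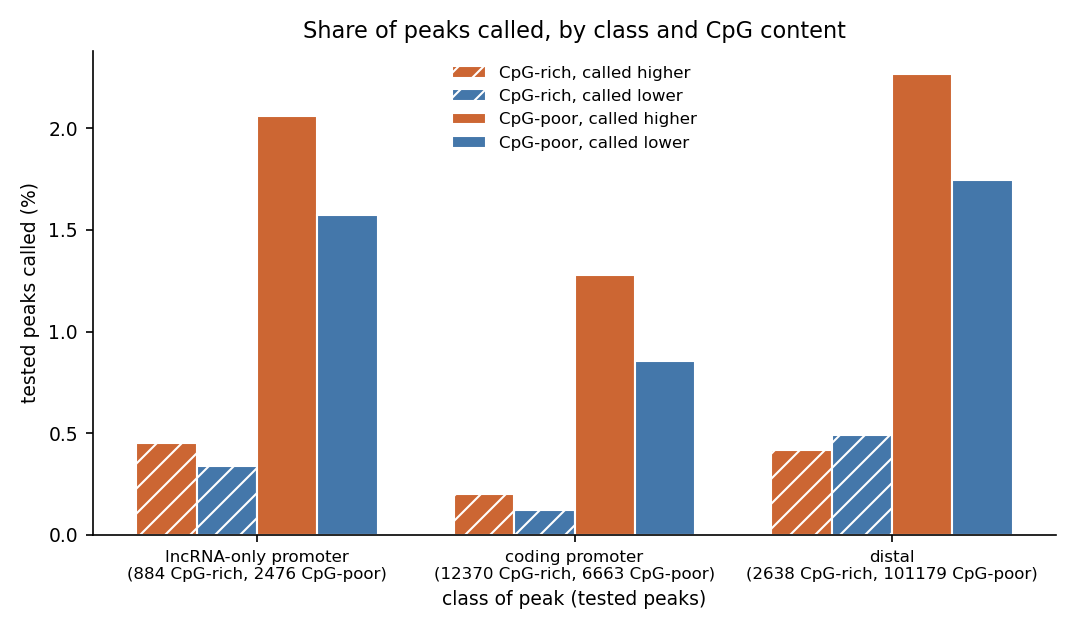
Percentage of tested peaks called higher (orange) or lower (blue) in HMGB2OE, for lncRNA-only promoters, coding promoters and distal peaks, each divided into CpG-rich (hatched) and CpG-poor (plain); bars start at 0 and the numbers of tested peaks stand under each class. In all 3 classes CpG-poor peaks were called more often than CpG-rich ones, with 3.63% against 0.792% in lncRNA-only promoters when both directions are added.

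As a share of each library, the counts in members differed by less than the spread between libraries. Members held 3.22%, 3.30% and 3.27% of peak counts in empty vector libraries and 3.26%, 3.26% and 3.21% in HMGB2OE libraries. The groups overlapped, and the difference of -0.0233 percentage points was not significant (two-sided exact permutation test, p = 0.4, where 0.1 is the smallest p this design allows). CpG-rich members alone held 1.33% ± 0.0100 in empty vector and 1.29% ± 0.0173 in HMGB2OE libraries (SD, n = 3, exact p = 0.1), without overlap. CpG-poor members held 1.94% ± 0.0379 and 1.95% ± 0.0143 (exact p = 0.8). For comparison, coding promoters went from 33.2% ± 0.133 to 32.4% ± 0.306 and distal peaks from 49.9% ± 0.212 to 50.6% ± 0.297 (exact p = 0.1 for each).

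Calls were spread over most groups of lncRNA genes and positions. Of 765 tested LINC peaks 17 were higher and 10 lower (2.22% and 1.31%), and of 259 antisense peaks 7 and 4 (2.70% and 1.54%). Of 30 divergent transcripts 2 and 0 were called (6.67% and 0%), and of 1871 peaks without a symbol 26 and 24 (1.39% and 1.28%). Among all tested peaks 1.87% were higher and 1.44% lower, or 3.31% in all. Intergenic members were called at 2.70%, members on the opposite strand within a coding gene at 3.97% (12 higher, 4 lower) and those on the same strand at 3.50% (4 higher, 1 lower). Members more than 100 kb from a coding start were called at 3.85% and those at 3 to 10 kb at 1.80%. Single-exon lncRNA genes were called at 1.70% and those with more exons at 3.002%. Members with an AP-1 word were called at 4.23% (26 higher and 18 lower of 1039) and those without at 2.28% (29 and 24 of 2321). The called members held the word in 47.3% of rises and 42.9% of falls, beside 30.9% of tested members and 36.4% of all tested peaks. The called share of all tested peaks with this word is not given here, so no difference particular to members is shown. These shares are descriptions, and the groups differ in height and CpG content.

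With a lncRNA start more than 400 and up to 500 bp away, 3 of 252 tested members were higher and 9 lower (4.76% called), and of 294 tested peaks at more than 500 and up to 600 bp, 9 were higher and 4 lower (4.42%), beside 3.31% of all tested peaks. Of 55 members more than 3000 and up to 3500 bp from a coding start, and of 47 peaks at 2500 to 3000 bp, none was called.

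Lists of lncRNA genes with known roles, some of which share genes, are set beside the 3.31% of all tested peaks that were called. The share was 3.57% of widely studied lncRNAs, 3.57% of snoRNA hosts and 2.99% of microRNA hosts, near that background. The melanoma, neural and axon guidance lists, with 23, 17 and 2 tested peaks, held no call. Of 21 lncRNA genes linked to melanoma, 13 had a member, with 23 tested peaks, and none passed the threshold of edgeR or of DESeq2, with 7 at an unadjusted p under 0.05 (30.4%, beside 20.9% of all tested peaks). Their median log2 fold change was -0.0043, beside -0.015 over all members, and its sign changed between scalings (from -0.02 to 0.02). SAMMSON, a melanoma lncRNA near MITF, had 1167, 1143 and 1146 normalized counts in empty vector libraries and 1095, 936 and 1023 in HMGB2OE libraries. All HMGB2OE libraries were lower, by 0.18 ± 0.08 on the log2 scale, but the adjusted p was 0.202. Its other tested promoter peak (chr3:70332258-70332759) was weak, at 34.7, 18.1 and 30.4 against 50.1, 25.9 and 57.4 normalized counts, with overlap between conditions and a log2 fold change of 0.70 ± 0.34 (adjusted p = 0.227). PVT1, the neighbour of MYC, had its most open promoter peak at a mean of 1683 (log2 fold change -0.13 ± 0.08, adjusted p = 0.364), LINC01291 at 1101 (0.01 ± 0.09, adjusted p = 0.976) and MIR31HG, the host of miR-31, at 603 (-0.19 ± 0.10, adjusted p = 0.305).

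In this list 3 of 23 tested peaks passed the adjusted p alone, with folds under 1.5, and they were chosen after their values were seen. Of these, 2 were higher and 1 lower, beside 3.44% higher and 3.03% lower of all tested peaks with no fold limit. At CASC15, a lncRNA of melanoma and neuroblastoma, 1 promoter peak had 316, 364 and 366 normalized counts in empty vector and 491, 453 and 477 in HMGB2OE libraries (log2 fold change 0.44 ± 0.10, adjusted p = 0.00880). Other tested CASC15 peaks had log2 fold changes of 0.34, 0.09 and 0.34 (edgeR adjusted p = 0.0709, 0.814 and 0.455). A less open promoter of PVT1 had 164, 194 and 188 against 258, 224 and 277 (0.46 ± 0.13, adjusted p = 0.0252). An inner promoter of MIR31HG had 224, 225 and 214 against 177, 151 and 132 (-0.52 ± 0.13, adjusted p = 0.0154). All 3 were without overlap between conditions, as were 25.1% of all tested peaks.

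Widely studied lncRNAs were open and held 1 call. Of 28 genes listed, 14 had a member, with 28 tested peaks, a median log2 fold change of -0.05 and 2 peaks at an unadjusted p under 0.05 (7.14%, beside 20.9% of all tested peaks). The paraspeckle lncRNA NEAT1 was at 1698, 1852 and 1939 normalized counts in empty vector and 1854, 1760 and 1913 in HMGB2OE libraries (log2 fold change 0.01 ± 0.08), and MALAT1 of nuclear speckles was at 1405, 1339 and 1391 against 1323, 1475 and 1370 (0.01 ± 0.08). CHASERR, which restrains its neighbour CHD2, was at a mean of 2031 (0.10 ± 0.07) and LUCAT1 at 1778 (-0.16 ± 0.08). The adjusted p of these 4 was at least 0.263. PURPL, a p53-regulated lncRNA, was called lower, from 111, 86.9 and 66.7 to 43.4, 45.0 and 47.3 normalized counts (-0.96 ± 0.22, adjusted p = 0.00780). This was a 1.94-fold fall without overlap, and the call was lost when empty vector replicate 1 was left out (adjusted p = 0.0555). The second promoter of PURPL had a value of -0.66 ± 0.33 (adjusted p = 0.257).

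The snoRNA host genes, which carry small nucleolar RNAs in their introns, had 28 tested peaks of 19 genes and a median of -0.07. SNHG29, SNHG12, SNHG25 and SNHG30 were the most open, at means of 1943, 1883, 1466 and 1081 normalized counts, and their log2 fold changes were -0.04, -0.13, -0.14 and -0.06 with adjusted p of at least 0.296. SNHG14, the imprinted host of the snoRNAs of the Prader-Willi region, was the only one called, from 50.03, 49.0 and 38.6 to 77.4, 65.1 and 88.9 normalized counts (0.74 ± 0.22, adjusted p = 0.0417). DESeq2 did not call it, and in edgeR the call remained only without HMGB2OE replicate 2, with adjusted p up to 0.166 in the other 5 leave-one-out fits.

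MicroRNA host genes had 67 tested peaks of 39 genes, with a median of -0.11 that lay between -0.11 and -0.08 under all scalings. For comparison, the median was -0.015 over all members, -0.05 in their most open bin and -0.06 in CpG-rich members. Whether the median of any list differs from these was not tested. MIR4527HG, described above, and 1 of 8 tested promoter peaks of MIR100HG were called lower. MIR100HG, the host of miR-100 and a let-7 microRNA, went from 147, 151 and 125.2 to 109, 85.9 and 82.2 normalized counts (-0.61 ± 0.16, adjusted p = 0.0210). The call was lost without empty vector replicate 1 or 2 or HMGB2OE replicate 2 or 3 (log2 fold changes of -0.58 to -0.54), and its most open promoter, at a mean of 870, had a value of -0.26 (adjusted p = 0.078). The most open hosts were MIRLET7A1HG at 2403, MIR9-1HG at 1776, MIR17HG at 1220 and MIR181A2HG at 1105, with log2 fold changes of -0.04, -0.16, -0.02 and -0.09 and adjusted p of at least 0.209.

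Neural lncRNAs had 17 tested peaks of 10 genes, with a median of -0.16 (from -0.16 to -0.11 under all scalings). None was called by edgeR or DESeq2, and 4 were at an unadjusted p under 0.05 (23.5%, beside 20.9% of all tested peaks). MIR9-1HG, the host of the neural miR-9, was at 1835, 1864 and 1919 normalized counts in empty vector and 1647, 1721 and 1673 in HMGB2OE libraries, without overlap (-0.16 ± 0.07, adjusted p = 0.209). NR2F2-AS1 was at a mean of 532 (-0.28 ± 0.10, adjusted p = 0.0915), NR2F1-AS1 at 791 (-0.08 ± 0.09) and MIR9-3HG at 341 (0.09 ± 0.11). A promoter of SOX2-OT, named after its values were seen, passed the adjusted p alone, from 83.4, 89.5 and 86.6 to 122, 132 and 127 (0.55 ± 0.16, adjusted p = 0.0336). It was the only 1 of the 17 to do so, and of all tested peaks 3.44% were higher and 3.03% lower with no fold limit. The other tested SOX2-OT peak was more open, at a mean of 128, with a value of -0.03 ± 0.16 (edgeR adjusted p = 0.932). Antisense genes of axon guidance loci had 2 members, UNC5B-AS1 (-0.04 ± 0.14) and SLIT3-AS2 (-0.05 ± 0.20), and neither was at an unadjusted p under 0.05 or called by DESeq2.

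**Figure D5:**
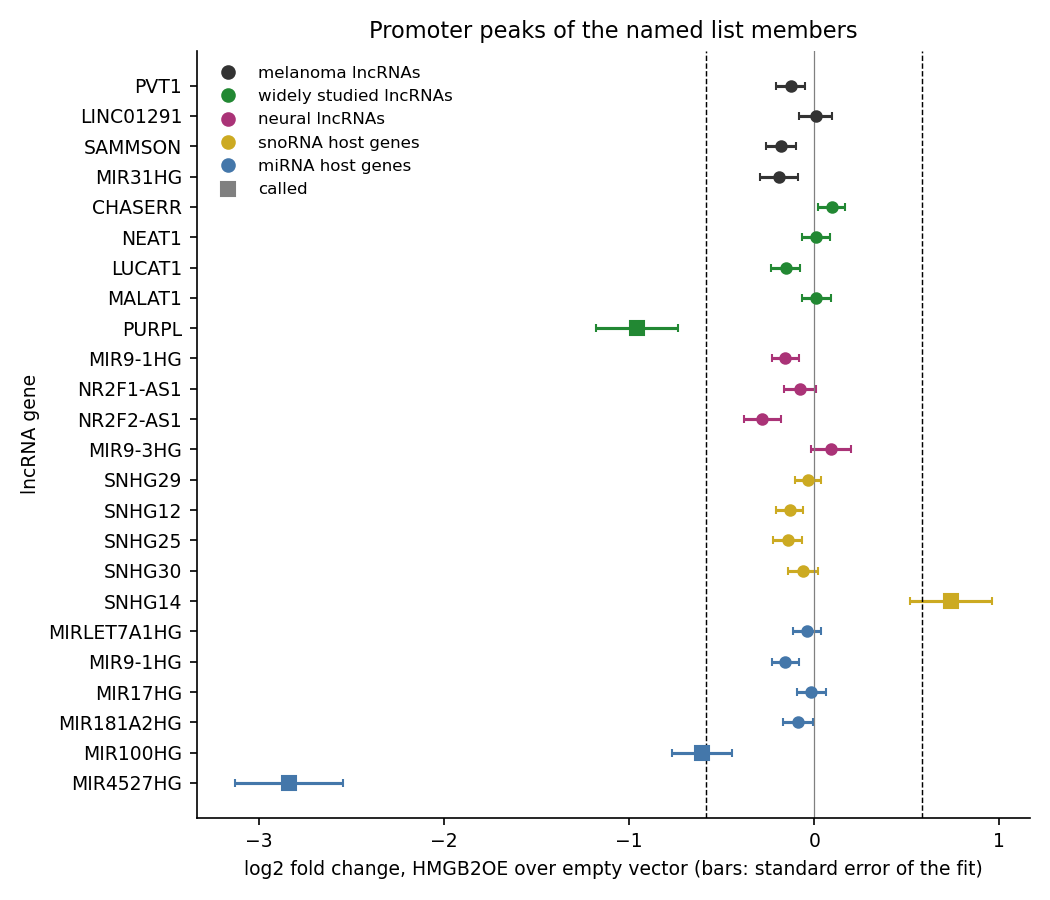
Log2 fold change of HMGB2OE over empty vector (horizontal axis) with the standard error of the fit (bars) for the most open members of 5 lists and all their called members (squares), 1 row per lncRNA gene, coloured by list, with dashed lines at a fold of 1.5. Apart from PURPL, SNHG14, MIR100HG and MIR4527HG, all points lie between -0.28 and 0.10.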

How the data were processed

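Reads of 6 A375 libraries were processed by the authors: trimmed (Trim Galore 0.6.7, Cutadapt 4.0), aligned to hg38 with Bowtie 2, freed of duplicates with Picard, and used for peak calling with MACS2 against public melanocyte data. Blacklisted regions were removed, peaks were merged within 500 bp, and the authors deposited raw featureCounts counts per peak and library. The handling of multiply aligned reads and any Tn5 shift is not given in the sources used here. The per-library totals bound the precision of each value, and weak peaks carry the widest errors.

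Samples were grouped by the genotype in their labels, and count columns were matched to samples by title. Counts of all peaks were fitted in edgeR 4.0.16 (R 4.3.3) with TMM, filterByExpr and the quasi-likelihood test, without covariates, and Benjamini–Hochberg adjustment over 150117 peaks. Standard errors are the log2 fold change divided by the root of its F statistic. For normalized counts, counts were scaled to the mean effective library size. DESeq2 1.42.0 was an alternative, beside other scalings, filters, fold limits, rules and leave-one-out fits; the fit was tested on simulated data. Shares were compared by exact permutation (SciPy 1.17.1). Repeated 31-base words were counted in hg38. The sequence of 1 named peak is not reported here.

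Named were the 8 largest rises and falls among called members without overlap, the 5 most open members, genes with more than 1 called member, and in each list the called members and the 4 most open genes. Members and lists were chosen with earlier results of these data known. Within groups, libraries differed by more than sampling noise over the members (chi-square per degree of freedom 2.51 to 3.33), so none was counted as a duplicate.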

Additional observations from a re-analysis of the deposited data

How the results depend on the processing

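Of the 55 members called higher 16, and of the 42 called lower 22, were called in every one of 15 alternative fits, and none turned direction in any of them. Members called higher numbered 28 to 57 in the leave-one-out fits, with 28 without HMGB2OE replicate 1, and members called lower 31 to 46. The lower fold limit gave 101 higher and 103 lower, and no fold limit 102 and 110. A lncRNA start within 250 bp left 25 lower, with 2.42% of 2605 tested peaks called in either direction. Members whose 31-base words occur once in the genome, an alternative chosen after seeing the data, held 18 lower (37 higher). Together these were 2.8% of 1964 tested, beside 3.31% of all tested peaks. These alternatives admit more calls or fewer members by construction, and the cause of the lower count without HMGB2OE replicate 1 was not tested.

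Deviations of same-numbered libraries correlated at -0.0884, 0.191 and 0.128, so the numbers were not taken as pairs. With a replicate block there were 61 higher and 46 lower.

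The difference in the share of counts, -0.0233 points, reversed to 0.0461 when taken of the counts in promoter peaks only, and was -0.0456 to -0.00521 with a library left out.

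Log2 fold changes near 0 reversed as follows, with no call gained. With library size only, ENSG00000291177 was 0.00685 and MIR17HG 0.00432. After a loess trend ENSG00000291177 was 0.0530, ENSG00000290122 0.00538, SNHG29 0.0250, MIRLET7A1HG 0.0266 and MIR17HG 0.0400. With GC offsets ENSG00000285646 was -0.0146, ENSG00000276216 -0.0114, LINC01291 -0.0249, MIRLET7A1HG 0.00683 and MIR17HG 0.0289, and with a replicate block added -0.0140, -0.00690, -0.0145, 0.00790 and 0.0298.
With a library left out the ranges were, for ENSG00000291177 from -0.0766 to 0.0557, ENSG00000285646 from -0.0378 to 0.089, ENSG00000276216 from -0.0337 to 0.159, LINC01291 from -0.0974 to 0.0989, NEAT1 from -0.0397 to 0.049, MALAT1 from -0.0336 to 0.0467, MIRLET7A1HG from -0.108 to 0.0169, MIR17HG from -0.054 to 0.0205, UNC5B-AS1 from -0.142 to 0.0451 and SLIT3-AS2 from -0.213 to 0.102.

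The limits are those of 3 libraries per condition from 1 line. The median standard error was 0.26 in the least open bin of members and 0.09 in the most open, so a small change at a weak promoter was not detectable at this depth. Sequence found more than once in the genome touches 437 tested members at 50% of their words or more. Of these, 3 were called higher and 5 lower (1.83%, beside 3.31% of all tested peaks).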
